A study of Mus musculus with 3 samples.

Results

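A set of 182 genes was lower in the endoderm of gastrulating mouse embryos than in both other germ layers, the mesoderm and the epiblast, and lay at a like level in these 2 layers. The genes were chosen from the measured values. The log2 intensity had to be at least 1 higher (2-fold) in mesoderm than in endoderm and at least 1 higher in epiblast than in endoderm, mesoderm and epiblast had to lie less than 1 apart, and both had to be above the median of all values, an intensity of 80.6 (log2 6.33), called the floor here. A gene was read from its probe set, a group of short oligonucleotides against the same transcript, with the highest mean log2 value. Of 18193 named genes, 11360 had mesoderm and epiblast above the floor and could enter, and the 182 endoderm-low genes were 1.60% of these. Since these differences made the choice, they are given as a description and no test was run on them.

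The RNA came from ICR embryos at E7.5, and the labels give no genotype or treatment beyond the strain and the stage. Per the study's methods, the embryonic region was cut free from the rest of the conceptus and loosened with trypsin and pancreatin, and the layers were then teased apart by hand. The epiblast sample held the neuroectoderm and also the primitive streak, the site where mesoderm arises, and the number of embryos behind each layer was stated neither in the labels nor in the methods. There was 1 array (Affymetrix Mouse Genome 430 2.0) for each layer, so no value has a replicate check and no p-value can be had. For 4719 genes with more than 1 probe set above the floor, the spread of the log2 difference among a gene's probe sets was taken. This spread (pooled SD) was 0.30 for mesoderm minus endoderm and 0.32 for epiblast minus endoderm. It was read within the same arrays, so it holds no variation between embryos, dissections or arrays. It therefore cannot serve as the error of a difference between layers, which was not measured. Precision is limited by the small number of arrays, and in such bulk samples fewer cells of a type and less RNA per cell cannot be told apart.

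The arrays had median intensities of 79.9 to 82.2 and upper quartiles of 269 to 319, the highest in endoderm. Most markers listed for the layers were brightest in the layer of the label. Marker lists were chosen with earlier results of these data known, so this is no independent check of the labels. In the order endoderm, mesoderm, epiblast, Sox17 was 4170, 116 and 51.3, Kdr was 142, 2300 and 147, and Sox2 was 72.4, 130 and 3032. Pou3f1, Nanog and Pou5f1 were also brightest in epiblast, but Cdh1, set as an epiblast marker, was 4562, 250 and 4021. In the definitive endoderm list, Foxa2 was brightest in endoderm (3247, 47.4 and 188) but Cxcr4 in mesoderm (495, 1138 and 83.5). Markers of the visceral endoderm, the extra-embryonic epithelium that covers the embryo at this stage, moved with the contrast that defined the 182 genes. All 10 such markers with mesoderm and epiblast above the floor exceeded both other layers by 2-fold or more in endoderm, and the intensities of the 20 named ones came to a sum of 106261 for endoderm, 2880 for mesoderm and 2507 for epiblast. In mesoderm 8 and in epiblast 9 of these 20 were at or below the floor, Afp and Apob among them. Their part in the low endoderm values of the 182 genes was not tested. None of 14 housekeeping genes was endoderm-low, and neither was any of the 35 genes that could enter from the 8 lists of cell type markers (visceral, definitive and parietal endoderm, trophoblast, erythroid, haemato-endothelial, immune and maternal cells). Of the 35, 10 were visceral, 4 definitive and 3 parietal endoderm markers, which were listed as genes of endoderm. At the 1.60% of all genes that could enter, sets of this size would hold few endoderm-low genes or none. The absence is therefore no result about these lists.

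During gastrulation, cells of the epiblast move through the primitive streak and become mesoderm or definitive endoderm, while the outer visceral endoderm descends from an earlier lineage. Hox genes and their TALE cofactors give cells a position along the body axis, Tbx6, Msgn1 and Dll1 act in the presomitic mesoderm that forms the somites, and retinoic acid, Notch, FGF and Hedgehog signals pattern the tissue. These genes are taken first below.

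The promoters of 4 endoderm-low Hox and presomitic genes are printed as sequence context. They are the 250 bases before the start of Hoxb1 (chr11:96365508-96365757, plus strand), Hoxa2 (chr6:52164832-52165081, minus strand), Msgn1 (chr12:11208949-11209198, minus strand) and Tbx6 (chr7:126781233-126781482, plus strand), from RefSeq on GRCm38.p6, 5′ to 3′ on the strand of the gene. Capitals mark motif matches. Hoxb1 and Hoxa2 each held the HOX-PBX motif, Msgn1 held a TCF/LEF motif on each strand, and Tbx6 held the HOX-PBX motif and a TATA box. The 4 genes were picked and do not stand for the class, and the promoters of Dll1 held none of these motifs.
Hoxb1: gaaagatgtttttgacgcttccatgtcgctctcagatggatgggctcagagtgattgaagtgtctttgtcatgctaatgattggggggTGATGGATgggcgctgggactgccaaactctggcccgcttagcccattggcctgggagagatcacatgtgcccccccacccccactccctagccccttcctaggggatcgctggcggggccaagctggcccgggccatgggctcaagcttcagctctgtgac
Hoxa2: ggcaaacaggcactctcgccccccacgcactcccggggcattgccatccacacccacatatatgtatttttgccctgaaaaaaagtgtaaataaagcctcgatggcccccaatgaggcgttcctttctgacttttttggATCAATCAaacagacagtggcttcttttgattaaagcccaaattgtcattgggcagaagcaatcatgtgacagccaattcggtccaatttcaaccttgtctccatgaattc
Msgn1: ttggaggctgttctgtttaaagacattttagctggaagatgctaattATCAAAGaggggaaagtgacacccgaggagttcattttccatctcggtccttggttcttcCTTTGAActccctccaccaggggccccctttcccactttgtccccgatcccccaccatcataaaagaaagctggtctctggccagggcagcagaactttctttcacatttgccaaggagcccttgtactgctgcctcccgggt
Tbx6: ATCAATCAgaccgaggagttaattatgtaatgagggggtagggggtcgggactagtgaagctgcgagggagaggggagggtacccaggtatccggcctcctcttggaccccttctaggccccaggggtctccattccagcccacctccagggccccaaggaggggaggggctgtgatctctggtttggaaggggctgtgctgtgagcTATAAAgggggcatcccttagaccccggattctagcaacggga

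Motifs were searched in windows of 250 bases before to 50 after each start, of which 162 belonged to 134 of the 182 genes. The letters were TGATNNAT for HOX-PBX, CTTTGAA or CTTTGAT for TCF/LEF and GGTGTGA for a T-box site, each on both strands, and TATAAA on the strand of the gene. No motif contains another, but CTTTGAT and TGATNNAT can share the letters TGAT. TGATNNAT was in 11 windows of the endoderm-low genes (6.79%), against 4.13% of windows of all genes tested, 6.46% of those of endoderm-high genes (the mirror class, 2-fold or more higher in endoderm than in both other layers, with these less than 2-fold apart) and 8.85% of all windows in the table. The TCF/LEF letters were in 4.94% against 5.93% of the genes tested, GGTGTGA in 1.85% against 3.33%, and TATAAA in 4.94% against 4.50%. Windows with a CpG ratio, observed over expected, above 0.6 were 56.8% for the endoderm-low genes and 69.3% for the genes tested. For the endoderm-high genes this share was 53.9%, so both classes held fewer CpG-rich starts than the genes tested as a whole. A match to such short letters describes the sequence and shows no binding.

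Across the 182 genes, median intensities were 171 for endoderm, 510 for mesoderm and 498 for epiblast. The smaller of the 2 differences against endoderm had a median of 1.27 on the log2 scale (2.42-fold), and 38 genes reached 3-fold and 16 reached 4-fold. In endoderm, 40 of the 182 genes were below the floor, where only a bound can be given. With the endoderm value raised to the floor, 154 stayed at 2-fold or more and 13 at 4-fold. Mesoderm was the brighter of the 2 other layers for 95 genes and epiblast for 87, with a median difference of 0.02, and 97 genes were within 1.25-fold. The class thus divided about evenly between the layers.

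**Figure D1:**
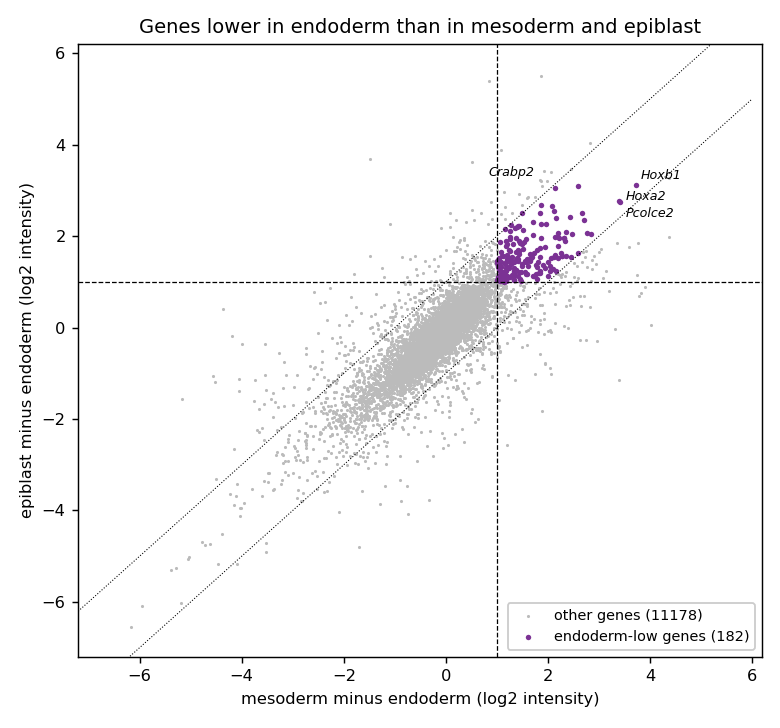
Log2 intensity in mesoderm minus endoderm (x axis) against epiblast minus endoderm (y axis) for the 11360 genes with mesoderm and epiblast above the floor, 1 array per layer. The 182 endoderm-low genes lie above the dashed lines at 1 and between the dotted lines where mesoderm and epiblast are less than 1 apart, with Hoxb1 at 3.72 and 3.11.

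The 26 lists of genes by role held 525 different genes that could enter, of which 34 were endoderm-low (6.48%), against 1.60% of all genes tested. The lists were chosen with earlier results of these data known, so these shares are a description and show no enrichment. At 1.60%, a list of this size would hold few endoderm-low genes or none, so a list without one is no result about that list. Of the lists, 20 had a member among them and 6 had none. The values of the endoderm-low genes follow by role, always as intensities in endoderm, then mesoderm, then epiblast. Where genes of a list within 2-fold of endoderm in both layers are counted, the share over all genes tested was 82.9%.

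Of 16 Hox and Cdx genes that could enter, 2 were endoderm-low. Hoxb1, an anterior Hox gene that acts in the hindbrain, was 171, 2247 and 1470. It was 13.2-fold higher in mesoderm and 8.61-fold higher in epiblast than in endoderm, which put it first in the class by its smaller fold. Hoxa2, a gene of the hindbrain and neural crest, was 12.6, 134 and 84.8. Its endoderm value was below the floor and its epiblast value just above it, so mesoderm was at least 1.66-fold and epiblast at least 1.05-fold above endoderm. Another 3 genes were lower in endoderm than in both layers but stood outside the class because mesoderm and epiblast were 2-fold apart. Hoxb2 was 86.3, 1782 and 830. Hoxd1 (26.3, 543 and 104) also leaned to mesoderm, and Cdx1 (57.4, 155 and 435) leaned to epiblast. Hoxb3 was 2-fold lower than mesoderm only, and the other 10 were within 2-fold of endoderm in both layers.

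Of 6 TALE factors, the homeodomain proteins that bind DNA together with Hox proteins, 3 were endoderm-low and 3 were within 2-fold. Meis2 was 172, 1085 and 972, or 6.32-fold and 5.66-fold above endoderm in mesoderm and epiblast. Pbx3 was 436, 1562 and 1460. Pknox2 was 98.9, 494 and 386. All 3 had mesoderm and epiblast within 1.28-fold of each other, and in each the endoderm was the dim layer by more than 3-fold. A member of the Iroquois homeobox family, Irx5, was 862, 2235 and 2047, while 4 other Iroquois genes that could enter were outside the class.

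In the presomitic programme, the endoderm-low genes were 3 of 18, the ones that also reached a like level in epiblast. All 18 genes of the nascent and paraxial mesoderm list that could enter were at least 2-fold lower in endoderm than in mesoderm or epiblast, with medians of 2.56 for mesoderm minus endoderm and 1.13 for epiblast minus endoderm on the log2 scale. Tbx6, a T-box factor needed for paraxial mesoderm, was 111, 721 and 564, or 6.50-fold and 5.08-fold above endoderm. Msgn1, a bHLH factor of the presomitic mesoderm, was 68.2, 163 and 147, with endoderm below the floor, an excess of at least 2.03-fold in mesoderm and 1.82-fold in epiblast. Dll1, a ligand of Notch, was 392, 1869 and 1207. Of the other 15 genes, 6 were lower than both layers with mesoderm brighter by 2-fold or more, 8 were lower than mesoderm only and 1, Hes7, was lower than epiblast only. Mesp1, at 172, 2057 and 579, was among the 6.

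Genes of the primitive streak and caudal epiblast lay more on the epiblast side. Tbx6 was the single endoderm-low gene of 15, whereas 3 were lower than both with epiblast brighter by 2-fold or more and 4 were lower than epiblast only. Of 21 genes of pluripotency and the epiblast state, 2 were endoderm-low. Both were Zic genes, zinc finger factors of the epiblast and neural plate. Zic2 was 401, 961 and 1539 and Zic5 was 460, 1100 and 1983. The pair lie next to each other in the genome, and in both the order was endoderm, mesoderm, epiblast with similar steps, so that the epiblast was 3.84-fold and 4.31-fold above endoderm.

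Neural and neuronal genes were in the class too, with mesoderm within 2-fold of epiblast by the rule. Fabp7, a lipid-binding protein of radial glia, was 134, 593 and 698, and it was 4.43-fold and 5.22-fold above endoderm. Dpysl2 (CRMP2), a tubulin-binding protein of growing axons, was 1236, 4230 and 4020. Sox11, a SoxC factor of neural progenitors, was 819, 2011 and 2380. Its relative Sox4 was within 2-fold in the 3 layers (3240, 3994 and 4018). Map1b, a microtubule-associated protein of neurons and the single endoderm-low gene of 24 kinesin and microtubule genes, was 138, 342 and 489. Of the 25 genes of the neural list that could enter, 4 others were lower than both layers but 2-fold apart between them, 3 toward epiblast (Nefl, Tubb3 and Crmp1) and 1 toward mesoderm (Ncam1), and 1 gene, Hesx1, was higher in endoderm than in both at 1129, 98.7 and 435.

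**Figure D2:**
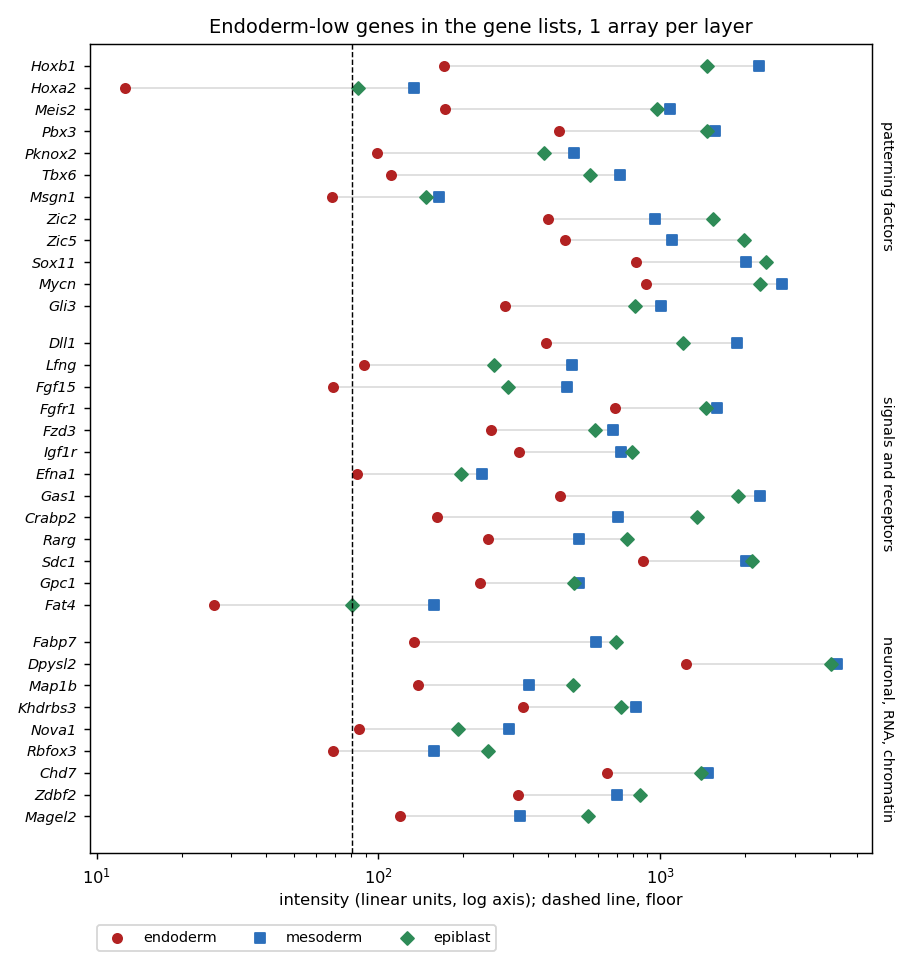
Intensity (x axis, linear units on a log axis) of the 34 endoderm-low genes of the role lists in endoderm (circles), mesoderm (squares) and epiblast (diamonds), 1 array per layer, with the floor of 80.6 as a dashed line. The endoderm point is the lowest in every row, and mesoderm and epiblast lie within 2-fold of each other, as the choice of genes required.

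Among signals and receptors, 2 of 18 Notch genes were endoderm-low and 11 were within 2-fold of endoderm in both layers. Lfng, a glycosyltransferase that modifies Notch receptors, was 88.9, 487 and 258, close to the limit where mesoderm and epiblast are 2-fold apart. Dll1 was the other. Notch1 itself (549, 1838 and 854) and Dll3 (354, 1667 and 688) were lower than mesoderm only, Hes7 (174, 288 and 477) was lower than epiblast only, and Nrarp, a feedback inhibitor, went the other way at 492, 182 and 193.

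Of 21 FGF genes, 2 were endoderm-low. Fgf15, a secreted FGF, was 68.9, 467 and 287, with endoderm below the floor, an excess of at least 5.79-fold in mesoderm and 3.56-fold in epiblast. Fgfr1, the receptor that gastrulating mesoderm needs, was 690, 1587 and 1457. Spry1, a feedback inhibitor of FGF signalling, was the 1 gene of the list higher in endoderm than in both layers (868, 169 and 283). Another 4 were higher in endoderm than in mesoderm only and 2 than in epiblast only. Lower in endoderm than in at least 1 layer were 4 of the 21, with the 2 endoderm-low genes counted. Fgf13, an intracellular FGF homologous factor that binds sodium channels and microtubules and was outside the list, was 184, 810 and 724.

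In the retinoic acid pathway, 2 of 13 genes were endoderm-low. Crabp2, which carries retinoic acid to the nucleus, was 162, 710 and 1347. Rarg, a nuclear receptor for it, was 245, 515 and 763. Both were brightest in epiblast. The other receptor that could enter, Rara, was near the floor in the 3 layers (89.9, 81.5 and 87.3). Aldh1a2, which makes retinoic acid from retinal, was lower than both but leaned to mesoderm (283, 2894 and 1027). The 3 genes of the list that were higher in endoderm than in both layers were Rbp4, a carrier of retinol (8942, 143 and 131), Cyp26a1, which breaks retinoic acid down (2131, 923 and 428), and Rdh10, which makes retinal (1294, 646 and 304).

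In the Hedgehog pathway, 2 of 12 genes were endoderm-low and the ligand was high there. Gas1, a co-receptor, was 442, 2261 and 1888, or 5.12-fold and 4.27-fold above endoderm. Gli3, a transcription factor of the pathway that acts largely as a repressor, was 281, 1009 and 815. Shh, the ligand, was 903, 122 and 130. Shh and these 2 genes thus lay on opposite sides of the endoderm contrast on these arrays. Of the other genes of the list, 8 were within 2-fold of endoderm in both layers and 1 was lower than epiblast only.

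The remaining signalling lists gave 1 gene each or none. Fzd3, a WNT receptor and 1 of 33 WNT genes, was 250, 677 and 584. Igf1r, the receptor for insulin-like growth factors and 1 of 20 genes of growth factor receptors and their ligands, was 316, 725 and 795. Efna1, a membrane-bound ephrin ligand, was 84.2, 234 and 197, and was the single endoderm-low gene among 35 guidance genes. None of 28 genes of NODAL, ACTIVIN and BMP signalling was endoderm-low. Genes of these lists that were higher in endoderm than in both other layers included Dkk1, a secreted WNT inhibitor (3326, 985 and 569), Porcn, which lipidates WNT proteins (538, 88.7 and 162), Id2, a target of BMP (3298, 1250 and 1290), and Kitl, the ligand of KIT (2944, 605 and 283).

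At the cell surface and in the matrix, heparan sulfate proteoglycans divided by gene and made up the 2 endoderm-low genes of 24 in the matrix list. Sdc1 (syndecan 1) was 866, 2008 and 2123 and Gpc1 (glypican 1) was 229, 513 and 493. Their relatives Sdc4 (1905, 285 and 445) and Gpc4 (1195, 357 and 446) were brighter in endoderm than in both other layers by 2-fold or more, so members of both families went both ways. Fat4, an atypical cadherin of planar polarity and 1 of 16 cadherin genes, was 26.2, 158 and 80.8, with epiblast just above the floor, so that only mesoderm can be said to differ, by at least 1.96-fold. None of 30 mesenchymal and cytoskeletal genes was endoderm-low. Vim (2206, 4882 and 2612) and Twist1 (413, 1528 and 117) were lower than mesoderm only.

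Regulators of RNA, chromatin and growth gave further genes. Of 28 tissue-specific splicing regulators, 3 were endoderm-low. Khdrbs3, a STAR family protein, was 324, 821 and 725. Nova1, a neuronal splicing factor, was 85.3, 291 and 192, and Rbfox3 (NeuN) was 69.1, 158 and 244. Both of these were dim, and Rbfox3 was below the floor in endoderm, with mesoderm at least 1.96-fold and epiblast at least 3.03-fold above it. Another probe set of Rbfox3, above the floor in the 3 layers, was 89.8, 90.3 and 105, with no such difference. Going the other way, Mbnl1, which drives adult splice patterns, was 594, 134 and 129. Chd7, a chromatin remodeller, was the single endoderm-low gene of 36 in its list, at 646, 1472 and 1393. Mycn, a Myc gene of progenitors and 1 of 21 growth control genes, was 889, 2709 and 2251. The 2 other Myc genes were outside the class, and Myc was 747, 704 and 208. None of 28 genes of DNA replication and the cell cycle was endoderm-low. All 28 were within 2-fold of endoderm in both layers, as were 82.9% of all genes tested. None of 20 glycolysis genes, 11 DNA methylation genes or 11 genes of let-7 and mRNA turnover was endoderm-low.

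Imprinted genes, which are read from 1 parental copy, gave 2 endoderm-low genes of 24. With these 2 counted, 9 of the 24 were 2-fold or more lower in endoderm than in at least 1 layer. In the other direction 8 of the 24 differed by 2-fold or more, 2 against both layers, 2 against mesoderm only and 4 against epiblast only. Over all genes tested, these 3 groups were 6.67%, 1.96% and 3.35%. Magel2, a gene of the Prader-Willi region, was 119, 317 and 553, and Zdbf2 was 312, 704 and 847. Snhg14, the long RNA of the Prader-Willi region that was outside the list, was 292, 653 and 1294, at the edge of the gap allowed between mesoderm and epiblast. Snrpn, from the same region, was 111, 189 and 410.5 and was lower than epiblast only. Those that went most strongly the other way were Sgce, a sarcoglycan (1335, 466 and 200.4), and Dlk1, a Notch-like membrane protein (791, 243 and 59.0), which was below the floor in epiblast and so outside the 24.

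**Figure D3:**
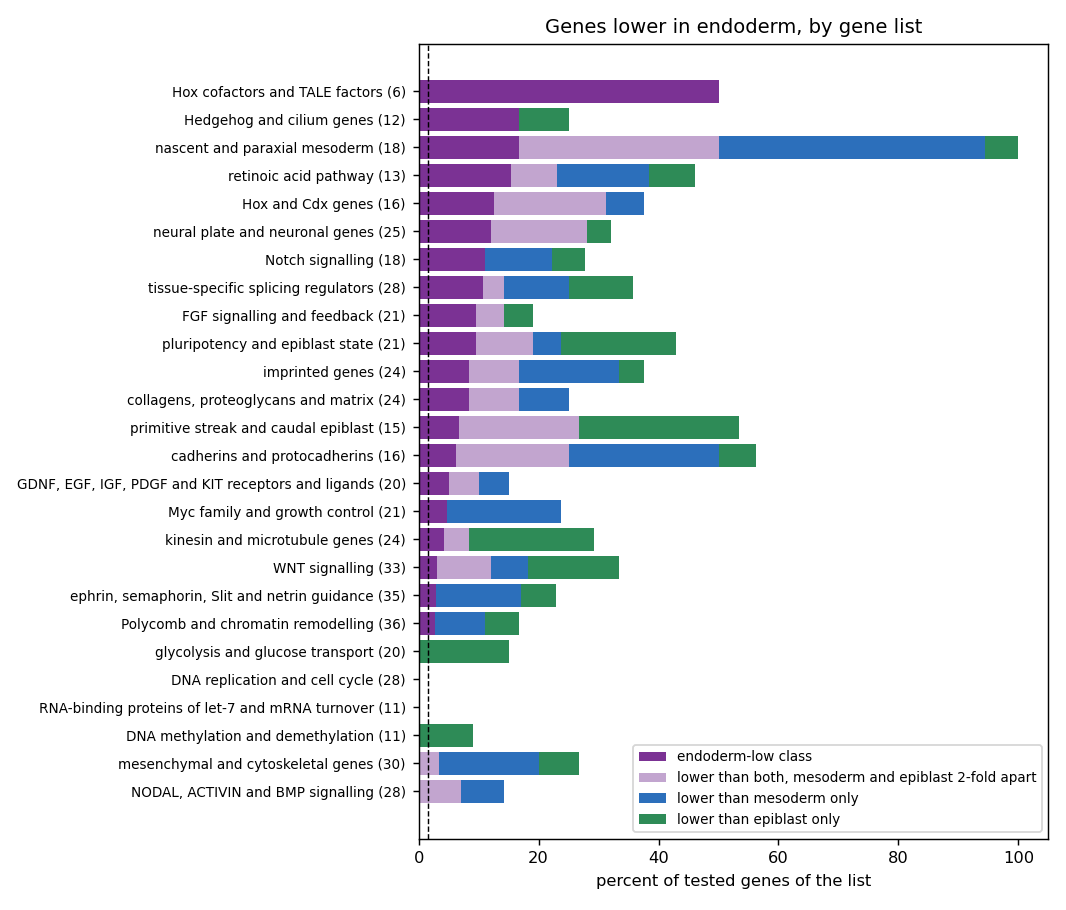
Share (x axis, percent) of the genes of each role list that could enter, their number in parentheses, that were at least 2-fold lower in endoderm. Colours separate endoderm-low genes, genes lower than both layers with mesoderm and epiblast 2-fold apart, and genes lower than 1 layer only; the dashed line is the 1.60% of endoderm-low genes among all genes tested.

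The other 148 endoderm-low genes were in no role list. By the largest smaller fold they were led by Hdgfl3, a chromatin-binding growth factor relative, at 83.6, 501 and 717 (5.99-fold and 8.58-fold above endoderm). Fndc3c1 was 343, 1835 and 1840. Pcolce2, which helps to cleave procollagen, was 53.3, 561 and 362, with endoderm below the floor, an excess of at least 6.96-fold in mesoderm and 4.49-fold in epiblast. Bcat1, a cytosolic enzyme of branched-chain amino acid metabolism, was 391, 1643 and 2462. Ankrd6 (Diversin), of planar polarity, was 81.0, 350 and 476, and Pde3b, a cyclic nucleotide phosphodiesterase, was 193, 881 and 810.

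Some of these genes came in families, which were listed after their values had been seen and are given as a description. Both procollagen C-endopeptidase enhancers were endoderm-low, Pcolce at 78.1, 349 and 184. Both PRPP synthetases that could enter, which make a precursor of nucleotides, were endoderm-low, with Prps1 at 495, 1803 and 2370 and Prps2 at 458, 1256 and 1656. The 2 proteins associated with these enzymes, Prpsap1 (1812, 1791 and 2059) and Prpsap2 (871, 1009 and 1093), differed little between layers. The neighbouring desaturase genes Fads1 (248, 825 and 542) and Fads2 (200, 822 and 475) were endoderm-low, whereas Fads3 was 70.9, 83.7 and 90.2. The elongases, which act in the same route to long fatty acids, split. Elovl6 was 464, 1090 and 993 and Elovl4 42.5, 121 and 139, while Elovl1 was higher in endoderm at 1654, 559 and 288.

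Adhesion receptors and chromatin partners showed similar splits. Both latrophilins that could enter were endoderm-low (Adgrl1 at 344, 922 and 1041, and Adgrl2 at 589, 1845 and 1612), and of their ligands, the teneurins, Tenm3 was 283, 1031 and 1103 and 3 others were outside the class. Of the 4 Sall genes, Sall3 was endoderm-low at 96.7, 349 and 547, whereas Sall4 was bright in every layer (5986, 5397 and 6262). Rcor2, a corepressor subunit, was 293, 595 and 629. The related Rcor1 (1189, 658 and 425) and Rcor3 (205, 155 and 86.9) were brightest in endoderm. By name stem, Zfp zinc finger genes gave 7 of 270 (2.59%), near the 1.60% of all genes tested, and 3 of 6 Armcx genes were endoderm-low. Zfp423, a factor of neural progenitors, was 430, 1510 and 1156, Zfp521 was 220, 620 and 561, Zfp811 was 68.0, 190 and 241 and Zfp287 was 63.2, 151 and 202. Zfp811 and Zfp287 were below the floor in endoderm.

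The endoderm-low genes were spread unevenly over the chromosomes. On the X chromosome 21 of 361 genes that could enter were endoderm-low (5.82%), against 161 of 10950 on the autosomes (1.47%), where single chromosomes ran from 0.548% to 2.86%. Endoderm-high genes were 5.97% of all genes that could enter and were also more frequent there, with 34 genes (9.42%) against 642 (5.86%), though chromosomes 1 and 10 came near to that share at 8.71% and 8.86%. The median difference over all X genes was near that of the autosomes, at −0.06 against −0.05 for mesoderm minus endoderm and −0.07 against −0.04 for epiblast minus endoderm. Xist, the RNA that silences the inactive X, was 1710, 1423 and 1635. The sex of the embryos was not stated.

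By role, the 21 X-linked genes were mixed. Besides Fndc3c1, Fgf13, Prps1 and Prps2 they included 3 of the 6 Armcx genes, which encode mitochondrial proteins and lie close together (Armcx1 at 393, 790 and 1044, Armcx2 at 1271, 2655 and 2584, and Armcx4 at 326, 853 and 929). Dock11, an activator of small GTPases, was 657, 3021 and 2603. Sulfation enzymes were represented by Hs6st2 (224, 1030 and 640), which modifies heparan sulfate, and Chst7 (120, 579 and 354). Phf6, a chromatin protein, was 322, 950 and 1233, and Cask, a synaptic scaffold kinase, was 184, 545 and 496.

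**Figure D4:**
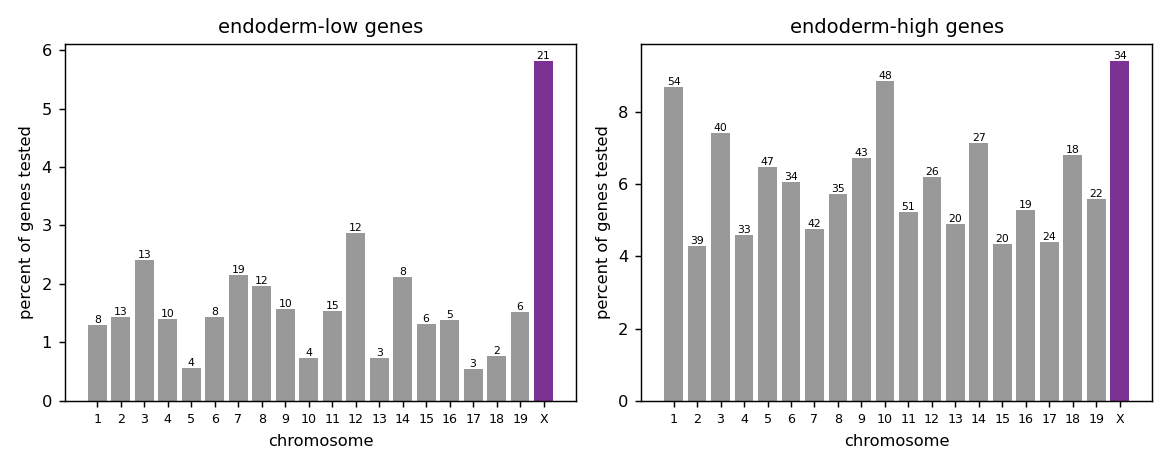
Percent (y axis) of genes with mesoderm and epiblast above the floor on each chromosome (x axis) that were endoderm-low (left) or endoderm-high (right), with the number of genes above each bar. The X chromosome, in colour, has 21 endoderm-low genes, 5.82% of its genes, against at most 2.86% on an autosome.

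Among 11291 pairs of neighbouring genes, 10 pairs were endoderm-low together. No such count was taken for other classes of genes, so the 10 pairs are given as a description. Besides Zic2 and Zic5, Fads1 and Fads2, and Armcx1 and Armcx4, they included Mycn with Cyria (49.7, 128 and 194), Nova1 with Stxbp6 (291, 734 and 678), Dpysl2 with Pnma2 (44.6, 108 and 211), Igf1r with Synm (59.5, 238 and 160), and Hdgfl3 with Sh3gl3 (112, 365 and 550). Within several pairs 1 partner was dim, with Cyria, Pnma2 and Synm below the floor in endoderm. The remaining pairs were Ankrd6 with Rragd (475, 1359 and 2096) and Asap2 with an unnamed clone.

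Probe sets that did not stand for their gene gave another reading of the same arrays. For 85 of the 182 genes, 144 further probe sets had mesoderm and epiblast above the floor. Of these, 141 (97.9%) were lower in endoderm than in both layers and 70 (48.6%) were lower by at least 2-fold, against 42.7% and 1.75% of the 7606 further probe sets of all genes. Another 73 probe sets of 60 genes were not above the floor in both layers, of which 53 were lower in endoderm than in both and 3 by at least 2-fold. No such share over all genes is given for these dimmer sets. The filter asked for signal in mesoderm and epiblast, the layers where the 182 genes are high by choice. The shares thus describe agreement between probe sets and are no test of the class. These readings come from the same RNA and are no replicates.

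Several genes named above were low in endoderm at further probe sets too, although Hoxb1 and Tbx6 had no further probe set among those used for genes. Of the further sets of Meis2, the brighter ones were 147, 912 and 822, and 175, 1094 and 917. The other bright set of Gas1 was 186, 1135 and 857, that of Pbx3 was 505, 1293 and 1277, and that of Chd7 was 354, 879 and 812. All 5 further sets of Sox11 above the floor were at least 2-fold lower in endoderm, the brightest of them at 512, 1525 and 2024. Other genes were called by some of their probe sets and not by others. A further set of Igf1r was 493, 474 and 542 whereas another was 250, 591 and 654. Gli3 had a set at 222, 721 and 626 and another at 133, 146 and 179. A set of Mycn was 115, 125 and 135. Further sets short of 2-fold were also found for Zfp521 (223, 261 and 290), Fzd3 (121, 124 and 142), Phf6 (108, 155 and 163) and Cask (130, 153 and 108). The 1 further set that was higher in endoderm than in both layers belonged to Adgra3, at 109, 83.2 and 87.6 beside 779, 2119 and 1618 at the set that stands for the gene. Over the 85 genes the pooled SD between probe sets was 0.51 for mesoderm minus endoderm and 0.48 for epiblast minus endoderm, larger than over all genes.

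**Figure D5:**
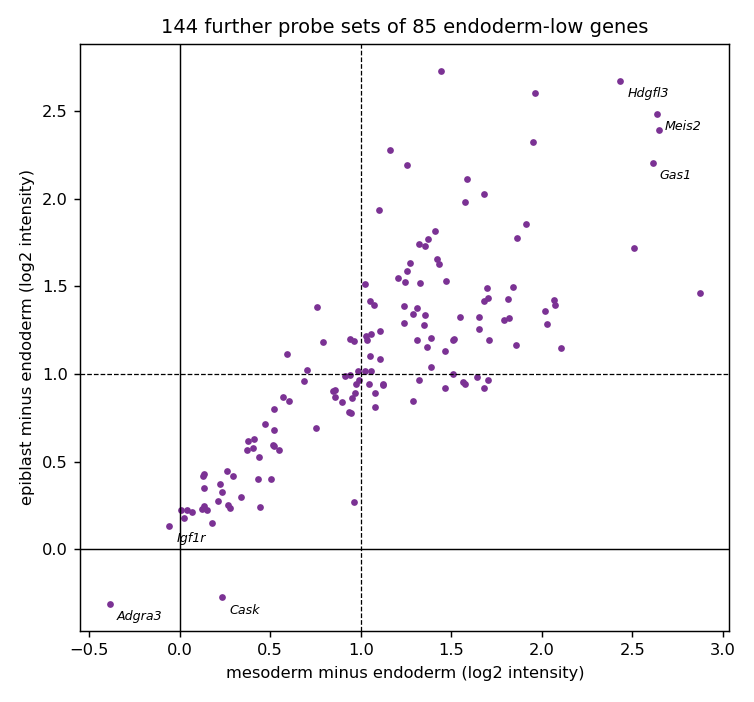
Log2 intensity in mesoderm minus endoderm (x axis) and epiblast minus endoderm (y axis) for 144 further probe sets of 85 endoderm-low genes, which did not stand for their gene, 1 array per layer. Of these points 141 lie above 0 on both axes and 70 reach the dashed lines at 1, with Adgra3 below 0 on both.

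The limits of the rule passed through a continuous field of genes. Just inside the 2-fold limit were Soga3 (50.8, 102 and 140), Zfp647 (386, 844 and 774) and Armcx1, and just outside it were Zfp799 (378, 756 and 809), Ncs1 (154, 318 and 309) and Pcyt1b (59.5, 119 and 191). At the limit on the gap, Aff3 (88.8, 250 and 501), Snhg14 and Fat4 were inside and Lpl (63.8, 350 and 704), Celf4 (99.7, 239 and 480) and Jade2 (93.7, 210 and 423) outside. At the floor, Fat4, S1pr5 (38.2, 101 and 82.9) and Hoxa2 were inside and Fam228a (39.4, 80.9 and 80.2), Slc16a4 (35.6, 88.0 and 79.5) and St6gal2 (19.6, 77.5 and 114) outside. The gap removed 54 genes that were lower in endoderm than in both layers, 31 of them brighter in mesoderm and 23 in epiblast, and the floor removed 22.

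The endoderm-low genes were the smaller side of the endoderm contrast. The endoderm-high class held 973 of 18193 genes (5.35%) against 182. So the lower class made up 15.8% of both classes together. The classes were filtered differently, since an endoderm-high gene needed only endoderm above the floor, and 678 of the 973 also had mesoderm and epiblast above it. The split depends on the scaling of the arrays. Centred on their 75th percentiles, which shifted the median difference of all genes tested to 0.16 for mesoderm and 0.21 for epiblast minus endoderm from −0.05 and −0.04, the arrays gave 297 endoderm-low and 699 endoderm-high genes, a share of 29.8%, and 179 of the 182 genes were among the 297. Classes low in another layer were somewhat smaller, with 124 mesoderm-low genes and 120 epiblast-low genes by the same rule.

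Taken layer by layer, 486 of 11692 genes were at least 2-fold higher in mesoderm than in endoderm (4.16%) and 503 of 12006 were at least 2-fold higher in epiblast than in endoderm (4.19%). Of the 11360 genes above the floor in both layers, 167 were lower in endoderm than in mesoderm only and 181 lower than in epiblast only. The shared class of 182 was thus about as large as either class that was lower against a single layer.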

How the data were processed

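The authors labelled 100 ng of total RNA per layer with biotin, hybridised it to 1 array per layer and, per the study's methods, used Robust Multiarray Average for background and normalization. What they deposited was a table of linear intensities for 45037 probe sets, and the sources used here do not name the step that put them in this form. Of these, 34945 had 1 gene symbol, 932 had several and 9160 had none in the platform annotation, and only the first were used for genes. Differences between layers were taken on the log2 scale, and each gene was read from its probe set of highest mean log2. Values under the floor were treated as bounds, and "at least" marks a fold computed with endoderm raised to it. With 1 array per layer the authors' choice of Significance Analysis of Microarrays could not be run here and no p-value is given.

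The members, the 26 role lists, the 8 marker lists and the housekeeping list were chosen with earlier results of these data known. Genes were named by rule: the 12 with the largest smaller fold after the floor, up to 6 endoderm-low genes per list, 3 on each side of each limit, up to 4 of a name stem with 4 or more, list genes next to another endoderm-low gene, and up to 2 genes per list that went most strongly the other way. Genes of the families and X-linked genes outside this rule, and other genes of the lists set beside the endoderm-low ones, were named after their values were seen. Genes without a name other than that of a clone or small RNA, 6 in the class, were counted only. RefSeq tables of GRCm38.p6 gave chromosomes for 11318 genes tested, neighbours and promoters. The 13 alternatives changed the floor, the scaling, the probe set or the limits. The code of the rule was run on simulated bright genes set away from its limits, which checks the code and not how reliable the calls are in these data. Python 3.11.15, pandas 2.3.3, R 4.3.3 and limma 3.58.1 were used.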

Additional observations from a re-analysis of the deposited data

Results flagged for a closer look

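Probe sets with several gene symbols or none were left out of the genes. By the same rule, 33 of 2428 of them with mesoderm and epiblast above the floor were endoderm-low (1.36%), against 297 of 18966 probe sets with 1 symbol (1.57%). This signal lies outside the genes described and was not followed further, since these probe sets name no single gene.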

How the results depend on the processing

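With 1 array per layer, no array could be left out. No paired analysis was possible because each layer has a single array. The 182 endoderm-low genes became 38 with a 3-fold limit, 473 with a 1.5-fold limit and 297 with 75th percentile centring, and ran from 126 to 248 under the other 10 alternatives. Quantile normalization gave 248, of which 177 were among the 182, and shifted the median difference of all genes tested to 0.11 and 0.14. The 973 endoderm-high genes became 442 with a 3-fold and 1877 with a 1.5-fold limit. The 34 genes of the role lists became 13 and 66 with these limits and 20 where mesoderm and epiblast had to be less than 0.5 apart. The 21 X-linked genes became 5 and 38 with these limits. The named endoderm-low genes were chosen for log2 differences of at least 1 on these arrays. Changing the fold limit or the gap limit leaves these differences as they are. A change of direction was thus unlikely from the start, and none was seen under the 13 alternatives. Of 44 named genes, 38 stayed in the class under all 4 scalings. Meis2, Tbx6, Pbx3, Pknox2, Gas1, Fabp7, Fndc3c1, Ankrd6 and Pde3b stayed in it under all 13, whereas Fat4 stayed under 5, Rbfox3 under 7, and Lfng, Nova1 and Zfp287 under 8. With the mean over probe sets, 114 of the 182 stayed in the class. Below the floor, signal limits what can be said of dim genes. The causes of these changes were not tested.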
